A study of Mus musculus with 60 samples.

Results

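The non-additive response of calf muscle to the combined Dmdmdx and Largemyd mutations was measured at 6 months of age, from the 20 arrays whose titles give that age out of 60 in the series. They were 5 arrays of each lineage, 1 mouse each: C57Bl/6 as the normal control, Dmdmdx, Largemyd, and the Dmdmdx/Largemyd double mutant, which carries both mutations. All mice were untreated and labelled male. The genetic background of the mutant lineages was not given in the sources used here, so strain differences and the mutations cannot be told apart. Values were log2 expression from Affymetrix Mouse Gene 1.0 ST arrays, with 1 probe set kept for each of 19938 genes.

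The quantity described is the double mutant minus Dmdmdx minus Largemyd plus C57Bl/6, on group means of log2 values. It is 0 where the double mutant's difference from C57Bl/6 equals the sum of the Dmdmdx and Largemyd differences, that is, where the fold changes multiply. A positive value places the double mutant above that sum and a negative value below it. It also equals the effect of Largemyd on a Dmdmdx background minus its effect on a normal background. It is called the non-additive difference below and is given with its standard error, from 5 arrays per group. C57Bl/6 enters it and also both single-mutant differences, so chance error in the control mean moves those differences and the non-additive difference in opposite directions, and the signs of the 2 are not independent.

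Dystrophin, absent from Dmdmdx fibres, ties the cytoskeleton of the muscle fibre to dystroglycan in its membrane. Dystroglycan in turn grips laminin in the surrounding matrix through sugar chains on its alpha subunit, and the Largemyd mutation prevents those chains from being completed. Loss of either link leaves fibres that tear during contraction, and cycles of fibre death, macrophage entry, regeneration and matrix deposition follow. The design therefore asks whether breaking both links of the same chain changes muscle gene expression more, or less, than the separate breaks would add up to.

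Array means at 6 months lay between 7.32 and 7.37, and the fast fibre list averaged between 12.3 and 13.19 in every array. Xist, which is transcribed from an inactive X chromosome, was at or above 10.58 in 8 of the 20 arrays despite the male label and at or below 5.85 in the other 12. The 8 were C57Bl/6 replicates 1, 2, 4 and 5, Largemyd replicates 2, 3 and 4, and Dmdmdx replicate 4, with none in the double mutant. In the non-additive difference these numbers enter as 0 minus 1 minus 3 plus 4, which is 0, so a shift common to all high-Xist arrays cancels. Such a shift does not cancel in differences between lineages. The double mutant minus C57Bl/6, for example, sets 0 high-Xist arrays against 4. The part of the Xist class in those differences was not tested. Leaving the 8 arrays out keeps a single control, replicate 3. Any gene that passes or fails without them therefore rests on 1 control array, with the spread estimated from the other groups. In each lineage 1 array carried markers of other tissue: marrow markers in C57Bl/6 replicate 3, Dmdmdx replicate 5 and double mutant replicate 4, and lymph node markers in Largemyd replicate 2. Taken by tissue, these arrays do not cancel in the non-additive difference. Marrow markers did not stand out in any Largemyd array, and lymph node markers stood out in Largemyd only. The part of each tissue in the non-additive difference was not tested. Counts without the high-Xist arrays, and counts without the other-tissue arrays, are given with the gene lists below.

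At 6 months 1001 of 19938 genes had a non-additive difference with an adjusted p under 0.05 (limma, Benjamini-Hochberg), which is 5.02% of genes. Of these 592 (2.97% of all genes) were positive and 409 (2.05%) were negative, and 144 reached 2-fold, 44 of them positive and 100 negative. The median over all genes was 0.0 and the median size among those that passed was 0.56. For comparison, 32.5% of genes differed from C57Bl/6 in Largemyd, 13.9% in Dmdmdx and 29.8% in the double mutant, while 4.58% differed between the double mutant and Dmdmdx and 1.34% between the double mutant and Largemyd. The split by direction moved with the scaling of arrays: 59.1% of the genes that passed were positive as deposited, 70.8% with array medians subtracted and 47.9% after quantile normalisation. Without the high-Xist arrays 58 genes passed, 31 of them among the 1001, and without the other-tissue arrays 1691 passed, 831 of them among the 1001.

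**Figure D1:**
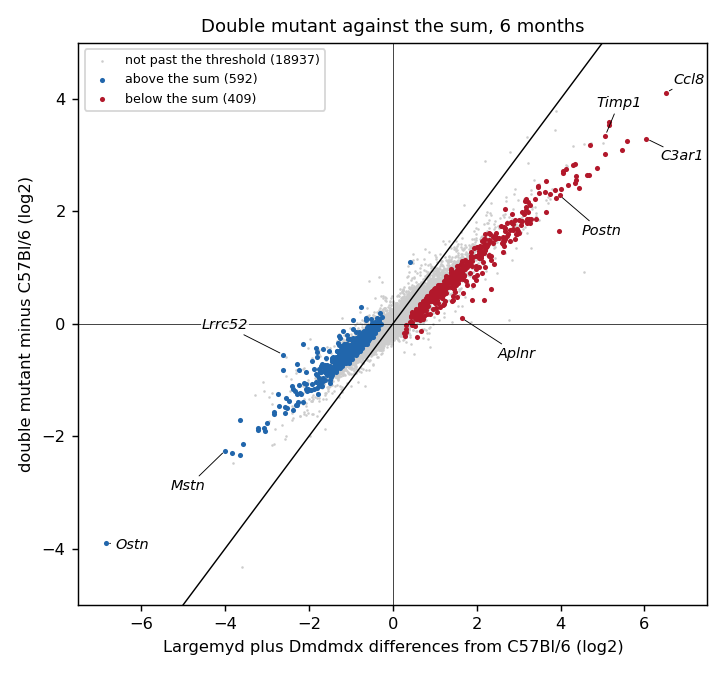
Each point is 1 gene at 6 months, with the Largemyd plus Dmdmdx differences from C57Bl/6 on the horizontal axis and the double mutant minus C57Bl/6 on the vertical axis, both in log2 units. The diagonal is equality; the 592 blue genes lay above the sum and the 409 red genes below it, and both axes share the C57Bl/6 arrays.

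Among the largest positive non-additive differences that passed were genes whose level fell in both single mutants and fell in the double mutant by less than the sum of those falls. Ostn, on chromosome 16, encodes osteocrin, also called musclin, a peptide hormone secreted by muscle. The 5 C57Bl/6 arrays gave Ostn levels of 11.26, 11.13, 9.95, 11.07 and 11.48 log2 units and the 5 Largemyd arrays 7.6, 7.09, 8.65, 7.54 and 8.2. The Dmdmdx arrays gave 7.29, 7.46, 7.0, 7.57 and 7.15 and the double mutant arrays 6.69, 6.76, 7.88, 6.98 and 7.04. All 15 mutant arrays were below all 5 controls, and the double mutant overlapped both single mutants. Ostn fell by 3.16 in Largemyd and by 3.68 in Dmdmdx, which sum to -6.84, but fell by 3.90 in the double mutant, so that its non-additive difference was 2.94 ± 0.37 (adjusted p = 9.6e-07). The sum would have put the double mutant at 4.14 log2 units, a level below which only 2.51% of genes lay at 6 months, and its part in the result was not tested.

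Mstn encodes myostatin, a secreted inhibitor of muscle growth. Its level was 10.72, 10.84, 10.61, 10.67 and 10.54 in C57Bl/6, 8.16, 7.34, 8.56, 7.75 and 8.42 in Largemyd, 9.27, 9.38, 9.03, 9.54 and 9.31 in Dmdmdx, and 8.48, 8.45, 8.63, 8.08 and 8.46 in the double mutant. The double mutant arrays were lower than every Dmdmdx array and overlapped those of Largemyd, the mutant with the larger fall. The non-additive difference of Mstn was 1.74 ± 0.42 (adjusted p = 0.0077). The double mutant minus Dmdmdx was -0.89 (adjusted p = 0.071) and the double mutant minus Largemyd 0.37 (adjusted p = 0.55).

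Otub2, a deubiquitinase gene, and Asb4, which encodes a substrate adaptor of a ubiquitin ligase, belong to the machinery that marks proteins for breakdown. Otub2 was at 9.51, 9.98, 9.62, 9.72 and 9.25 in C57Bl/6, 7.45, 7.61, 7.82, 7.44 and 7.99 in Largemyd, 7.72, 7.86, 7.67, 8.07 and 8.26 in Dmdmdx, and 7.78, 7.8, 7.82, 8.22 and 7.88 in the double mutant. The mutants overlapped each other and were all at least 1 log2 unit below the lowest control but for Dmdmdx replicate 5. Asb4 was at 8.95, 8.76, 9.04, 8.8 and 9.13 in C57Bl/6, 6.86, 6.55, 6.95, 6.73 and 7.07 in Largemyd, 7.08, 7.16, 7.16, 7.27 and 7.29 in Dmdmdx, and 6.64, 6.58, 6.77, 6.47 and 6.76 in the double mutant. The double mutant fell by 0.55 further than Dmdmdx for Asb4 (adjusted p = 0.0059), and no double mutant array reached the lowest Dmdmdx array. The non-additive differences were 1.93 ± 0.22 for Otub2 (adjusted p = 9.1e-08) and 1.55 ± 0.18 for Asb4 (adjusted p = 2e-07). The sum would have put the double mutant at 5.97 for Otub2 and at 5.09 for Asb4. Of all genes 17.2% and 8.27% lay below those levels, and the part of a lower limit was not tested.

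For a second group the double mutant lay nearer to the control than either single mutant did. Lrrc52, which encodes an auxiliary protein of potassium channels, was at 8.93, 8.3, 8.12, 8.7 and 9.12 in C57Bl/6, 8.02, 7.44, 7.87, 7.45 and 7.92 in Largemyd, 6.65, 6.9, 6.75, 7.02 and 7.21 in Dmdmdx, and 8.36, 7.63, 8.84, 7.58 and 8.02 in the double mutant. The double mutant overlapped the control and Largemyd, and all of its arrays were above all Dmdmdx arrays, by 1.18 on average (adjusted p = 0.0082). The double mutant minus C57Bl/6 was -0.55 (adjusted p = 0.15), against falls of 0.89 in Largemyd and 1.72 in Dmdmdx. The non-additive difference of Lrrc52 was 2.07 ± 0.41 (adjusted p = 0.0012).

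Ppp1r3c, on chromosome 19, encodes a scaffold that brings protein phosphatase 1 to glycogen and favours glycogen synthesis. It was at 10.59, 10.77, 10.54, 10.96 and 10.14 in C57Bl/6, 9.56, 8.6, 9.25, 9.62 and 10.13 in Largemyd, 9.57, 9.49, 9.05, 9.79 and 10.16 in Dmdmdx, and 10.7, 10.03, 10.11, 10.05 and 10.33 in the double mutant. The double mutant overlapped every other lineage. Ppp1r3c fell by 1.17 in Largemyd and by 0.99 in Dmdmdx, and the double mutant minus C57Bl/6 was -0.36 (adjusted p = 0.35). Abra, which encodes an actin-binding protein of striated muscle, followed the same order, with falls of 0.91 and 0.92 in the single mutants and -0.43 (adjusted p = 0.13) in the double mutant. The non-additive differences were 1.79 ± 0.39 for Ppp1r3c (adjusted p = 0.0034) and 1.39 ± 0.30 for Abra (adjusted p = 0.0031).

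The remaining genes of the 12 largest positive values among genes that passed were Alpk2 (1.81 ± 0.29), an alpha-kinase gene, and Pla2g7 (1.57 ± 0.24), which encodes the enzyme that inactivates platelet-activating factor. Mical2 (1.48 ± 0.22), which encodes an actin-oxidising enzyme, Cyp4f39 (1.44 ± 0.30), a cytochrome P450 gene, and Ppp1r27 (1.42 ± 0.33), a regulatory subunit gene of protein phosphatase 1, completed them. All of these fell in all 3 mutants. Over all genes 17.1% fell in Largemyd, 6.74% in Dmdmdx and 15.5% in the double mutant. For the 12 genes with the largest positive values the sum lay between 4.14 and 9.74, levels below which from 2.51% to 86.8% of genes lay. The double mutant differed from Dmdmdx in 2 of the 12, Lrrc52 and Asb4, and from Largemyd in 1, Pla2g7, whose double mutant was higher by 0.68 (adjusted p = 0.030). The next positive value that passed after Abra was that of Pla2g5 at 1.36, and larger values that did not pass were left out, such as Car2 at 2.07 ± 0.94 (adjusted p = 0.22). Without the high-Xist arrays Otub2 (1.92), Alpk2 (1.58) and Asb4 (1.55) still passed, while Ostn was at 1.90 (adjusted p = 0.10), Lrrc52 at 1.36 (adjusted p = 0.58), Ppp1r3c at 1.36 (adjusted p = 0.38) and Mstn at 1.5 (adjusted p = 0.47). The other 5 were then between 0.89 and 1.63 and did not pass.

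**Figure D2:**
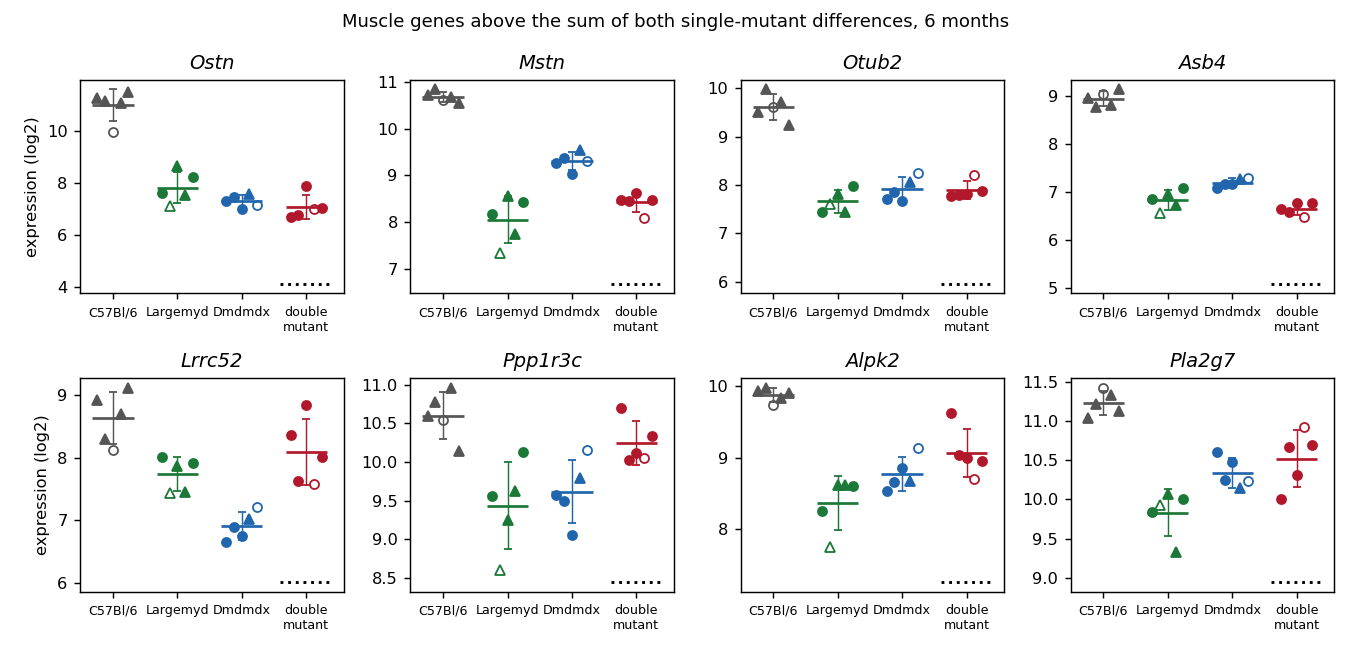
Expression (log2) of 8 muscle genes in each 6-month array, by lineage; lines and bars are the mean and SD of 5 arrays, triangles are high-Xist arrays, open symbols are arrays with markers of other tissue, and the dotted line is the level the sum would give the double mutant. Every double mutant mean lies above its dotted line, as for Ostn at 7.07 against 4.14.

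Among genes that passed, the 12 with the largest negative values included many genes of macrophages, and all 12 rose in both single mutants and in the double mutant. Larger values that did not pass were left out, such as H2-Ea at -3.63 ± 1.25 (adjusted p = 0.076). C3ar1, on chromosome 6, encodes the receptor for the complement fragment C3a. It was at 7.91, 8.27, 7.96, 8.26 and 7.87 in C57Bl/6, 11.15, 10.44, 11.21, 10.27 and 10.66 in Largemyd, 11.99, 11.15, 11.47, 11.15 and 11.24 in Dmdmdx, and 11.38, 11.89, 10.89, 11.21 and 11.35 in the double mutant. The 3 mutants were all above the controls, and the double mutant overlapped the single mutants. C3ar1 rose by 2.70 in Largemyd, 3.35 in Dmdmdx and 3.29 in the double mutant, a non-additive difference of -2.75 ± 0.37 (adjusted p = 4.4e-06). In whole muscle, fewer cells of a type and less RNA per cell cannot be told apart. The sum would have put its double mutant level at 14.09, above the highest gene mean on these arrays, 14.06. For the 12 genes with the largest negative values the sum lay between 11.09 and 14.09, levels that from 3.27% of genes to none exceeded, and the part of that upper limit in the results was not tested.

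Ccl8, on chromosome 11, encodes a chemokine that attracts monocytes and other leukocytes. Its level was 6.36, 6.05, 6.5, 6.6 and 6.32 in C57Bl/6, 10.97, 10.3, 10.71, 9.45 and 9.31 in Largemyd, 8.91, 9.15, 9.88, 8.71 and 8.84 in Dmdmdx, and 9.96, 10.34, 10.19, 11.19 and 10.7 in the double mutant. All double mutant arrays were above all Dmdmdx arrays, by 1.38 on average (adjusted p = 0.020), and overlapped Largemyd. The non-additive difference was -2.41 ± 0.53 (adjusted p = 0.0036), and Ccl8 was the only 1 of the 12 in which the double mutant differed from Dmdmdx.

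Ctss, on chromosome 3, encodes cathepsin S, a lysosomal protease that trims the invariant chain in antigen-presenting cells. It was at 7.82, 7.58, 8.68, 7.74 and 7.71 in C57Bl/6, 10.74, 10.59, 10.52, 10.27 and 10.23 in Largemyd, 11.32, 10.69, 10.95, 10.59 and 10.52 in Dmdmdx, and 10.82, 11.47, 10.48, 11.17 and 11.03 in the double mutant. The highest control was replicate 3, the array with marrow markers, and the mutants overlapped each other. Ctss had a non-additive difference of -2.38 ± 0.41 (adjusted p = 0.00016).

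Gpnmb encodes a glycoprotein of phagocytes that clear debris. It was at 8.17, 8.04, 8.74, 8.17 and 8.02 in C57Bl/6, 10.83, 10.04, 10.47, 9.77 and 10.53 in Largemyd, 11.81, 11.13, 11.1, 10.77 and 11.06 in Dmdmdx, and 11.0, 11.63, 11.05, 11.22 and 11.38 in the double mutant. All double mutant arrays were above those of Largemyd, by a mean of 0.93 that did not pass the test (adjusted p = 0.081), and the non-additive difference was -2.02 ± 0.40 (adjusted p = 0.0012).

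The other 8 were Ms4a7 (-2.33 ± 0.33), Cd180 (-2.31 ± 0.59), Mpeg1 (-2.09 ± 0.53), Ly86 (-2.03 ± 0.44), Lgals3 (-2.03 ± 0.37), Cd68 (-1.99 ± 0.39), Wfdc17 (-1.85 ± 0.36) and Ms4a6b (-1.81 ± 0.50). Cd180 and Ly86 encode the partners of a Toll-like receptor complex of B cells and macrophages, Mpeg1 a pore-forming protein of the macrophage lysosome, Lgals3 galectin-3, and Cd68 a lysosomal membrane protein used as a macrophage marker. All 8 rose in all 3 mutants, where 15.4%, 7.12% and 14.4% of all genes rose in Largemyd, Dmdmdx and the double mutant, and in none of them did the double mutant differ from either single mutant at an adjusted p under 0.05 (limma). Over all 12 genes the comparison with Largemyd was passed by none and was under an unadjusted p of 0.05 for 5, and that with Dmdmdx was passed by 1. Ms4a6b no longer passed when any 1 of 6 arrays was left out (C57Bl/6 replicate 5, Largemyd 2, Dmdmdx 1 or 3, or double mutant 1 or 3, adjusted p from 0.051 to 0.056). Without the high-Xist arrays C3ar1 (-3.07) still passed, Ccl8 was at -2.36 (adjusted p = 0.36), Ctss at -1.68 (adjusted p = 0.42), and the 12 lay between -3.07 and -0.45. On the linear scale, where an additive sum of signals is the reference, Cd180 and Ly86 passed and the other 10 did not, whereas all 12 of the largest positive genes passed.

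**Figure D3:**
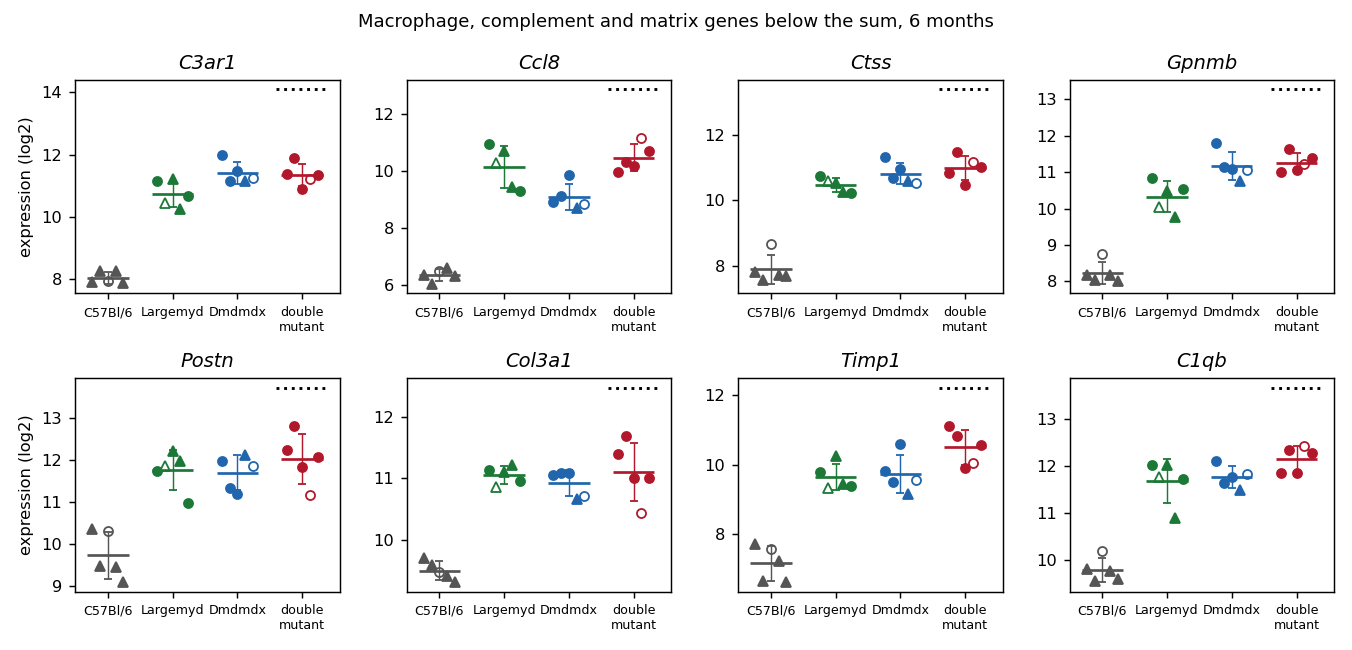
Expression (log2) of 8 macrophage, complement and matrix genes in each 6-month array, by lineage; lines and bars are the mean and SD of 5 arrays, triangles are high-Xist arrays, open symbols are arrays with markers of other tissue, and the dotted line is the level the sum would give the double mutant. Every double mutant mean lies below its dotted line, as for C3ar1 at 11.34 against 14.09.

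Promoters of the genes that moved furthest were searched for 4 short motifs on both strands, in sequences from RefSeq (GRCm38.p6). The stretch searched ran from 250 bases before the start to a short way past it. The sequences printed below are only the 250 bases before the start. A promoter was found for 9 of the 12 most positive genes and for all 12 most negative genes. The E-box CAGCTG, a form that myogenic factors bind, was in 3 of 9 of the former and 3 of 12 of the latter. It was in 18.3% of all 27025 genes with a promoter. The PU.1 core GAGGAAGT, whose factor is a regulator of macrophage genes, was in 0 of 9 and 1 of 12, against 3.69% of all. The NFAT core GGAAAA was in 2 of 9 and 6 of 12, against 26.1%. The cyclic AMP response element TGACGTCA was in none of the 21 and in 2.03% of all. Motifs of this length occur by chance, and a match describes the sequence only. Of the genes described above, 3 that hold CAGCTG are shown, each 5′ to 3′ on the gene's strand with the E-box in capitals, because they stand for both directions: Ctss (chr3:95526536-95526785, plus strand) and Ccl8 (chr11:82114935-82115184, plus strand) lay below the sum, and Ppp1r3c (chr19:36736605-36736854, minus strand) above it.
Ctss: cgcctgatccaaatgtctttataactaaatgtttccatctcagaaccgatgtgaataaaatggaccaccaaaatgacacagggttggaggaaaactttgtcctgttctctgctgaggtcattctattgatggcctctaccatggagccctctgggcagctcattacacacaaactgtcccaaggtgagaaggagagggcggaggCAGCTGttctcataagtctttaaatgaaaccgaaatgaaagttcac
Ccl8: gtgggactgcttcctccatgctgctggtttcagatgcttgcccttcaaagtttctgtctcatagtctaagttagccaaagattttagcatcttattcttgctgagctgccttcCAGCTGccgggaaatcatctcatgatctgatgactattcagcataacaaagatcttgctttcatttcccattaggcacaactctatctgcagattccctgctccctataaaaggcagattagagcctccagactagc
Ppp1r3c: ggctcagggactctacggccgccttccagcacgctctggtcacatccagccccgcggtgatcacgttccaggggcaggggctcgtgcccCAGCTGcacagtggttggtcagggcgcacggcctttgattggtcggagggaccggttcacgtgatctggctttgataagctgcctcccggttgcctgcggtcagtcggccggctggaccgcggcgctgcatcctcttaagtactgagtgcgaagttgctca

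The macrophage list holds C3ar1, Gpnmb, Cd68, Lgals3, Mpeg1 and Ms4a7 of the genes above. Of 34 listed markers 32 were measured, and 16 had a negative non-additive difference that passed and 0 a positive one, where 2.05% of all genes were negative. The list median was -1.21, beside a median of 0.0 over all genes. The medians of the differences from C57Bl/6 were 1.53 in Largemyd, 1.63 in Dmdmdx and 2.01 in the double mutant. Members that passed, beside those above, included Adgre1 (-1.75), which encodes the F4/80 antigen, Ms4a6d (-1.58), Trem2 (-1.38), which encodes a lipid-sensing receptor, Csf1r (-1.24), the receptor for the macrophage growth factor, and Lyz2 (-1.19), a lysozyme gene.

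The mean of the macrophage list per array ran from 7.5 to 8.41 in C57Bl/6, 8.77 to 9.68 in Largemyd, 9.21 to 9.91 in Dmdmdx and 9.55 to 10.23 in the double mutant, so the controls did not overlap the mutants. The neutrophil and marrow list ran from 6.92 to 10.57 in C57Bl/6 and from 6.74 to 10.5 in the double mutant, and the B cell and lymph node list from 7.13 to 9.86 in Largemyd. None of their 20 and 18 measured members passed (limma, with 0 and 1 under an unadjusted p of 0.05), with medians of 1.20 and -0.90. Without the other-tissue arrays 23 of 32 macrophage markers passed, all negative, with a median of -1.35. In the same fit 4 of the 18 B cell and lymph node genes passed, all negative, with a median of -1.05. Of the 20 neutrophil and marrow genes 0 passed there, with a median of 0.12. Largemyd replicates 1, 4 and 5, with lymph node list means of 8.24, 8.66 and 8.19, stayed in that fit. The part of other tissue in them was not tested. Without the high-Xist arrays 1 passed with a median of -0.59, and on the linear scale 4 passed. The count was 23 without C57Bl/6 replicate 3, the highest reached by leaving out 1 array.

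Among complement, chemokine and antigen-presentation genes, those that passed were all negative, as 2.05% of all genes were. Of 16 measured complement genes 6 passed (1 without the high-Xist arrays, 7 without the other-tissue arrays), with a list median of -0.49: C1qa (-1.16), C1qb (-1.51) and C1qc (-1.29), which encode the 3 chains of the initiating component C1q, C1ra and C1s1, its proteases, and Cfb (-1.17), a protease of the alternative pathway. C1qb was at 9.82, 9.56, 10.19, 9.77 and 9.59 in C57Bl/6, 12.02, 11.76, 12.02, 10.89 and 11.73 in Largemyd, 12.1, 11.64, 11.77, 11.49 and 11.82 in Dmdmdx, and 11.86, 12.35, 11.86, 12.43 and 12.28 in the double mutant. It still passed without the high-Xist arrays (-1.37). The double mutant overlapped both single mutants for C1qb, and exceeded Dmdmdx for C1qa by 0.65 (adjusted p = 0.018) and for C1qc by 0.65 (adjusted p = 0.030).

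Of 29 measured chemokines and cytokines 3 passed (0 without the high-Xist arrays, 8 without the other-tissue arrays): Ccl8, Ccl9 (-1.01) and the fractalkine receptor gene Cx3cr1 (-1.19 ± 0.24). Cx3cr1 rose by 0.90 in Largemyd, 1.07 in Dmdmdx and 0.78 in the double mutant. Of 14 genes of antigen presentation 2 passed (0 without the high-Xist arrays, 9 without the other-tissue arrays), Cd74 (-1.43), which encodes the invariant chain, and H2-Aa (-1.33), a class II chain. The call ended for Cd74 without any of 11 arrays and for H2-Aa without any of 14, each left out singly, with adjusted p up to 0.082 and 0.11. With Xist and tissue markers as covariates in limma, 0 of the 14 passed and the median was -0.33. Cd74 was then at -0.88 (adjusted p = 0.095) and H2-Aa at -0.82 (adjusted p = 0.1). Of 22 interferon-induced genes none passed (limma, 11 negative at an unadjusted p under 0.05), although the median was -0.60. The largest were Irf7 at -1.07 (adjusted p = 0.18) and Ifit3 at -1.0 (adjusted p = 0.27).

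Matrix genes that passed also lay below the sum. Of 42 listed 38 were measured, and 12 passed with a negative value and 0 with a positive one, beside 2.05% and 2.97% of all genes, with a median of -0.59. They were the fibrillar collagens Col3a1 (-1.36) and Col5a2 (-0.67), the microfibril collagens Col6a1 (-0.74), Col6a2 (-0.77) and Col6a3 (-1.0), fibronectin (Fn1, -0.72), the crosslinking enzyme gene Lox (-0.94), Postn (-1.69), Thbs2, Thbs4, Bgn and Sparc. The list medians against C57Bl/6 were 0.92 in Largemyd, 0.67 in Dmdmdx and 0.99 in the double mutant.

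Postn encodes periostin, which is laid down where matrix is being built. It was at 10.34, 9.46, 10.3, 9.45 and 9.09 in C57Bl/6, 11.74, 11.84, 12.21, 11.98 and 10.96 in Largemyd, 11.97, 11.33, 11.19, 12.12 and 11.85 in Dmdmdx, and 12.23, 12.79, 11.82, 11.17 and 12.07 in the double mutant. The mutants were all above the controls and overlapped each other. Postn rose by 2.01, 1.96 and 2.29, and Col3a1 by 1.55, 1.41 and 1.6, in Largemyd, Dmdmdx and the double mutant in that order. With the high-Xist arrays left out, Postn was at -0.61 (adjusted p = 0.80) and Col3a1 at -1.44 (adjusted p = 0.099), and none of the 38 matrix genes passed (limma). Without the other-tissue arrays 14 passed, and on the linear scale 7.

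Among 25 measured matrix proteases and their inhibitors 10 passed, all negative, beside 2.05% of all genes, with a median of -0.45. Besides Ctss they included Timp1 (-1.72 ± 0.39), which encodes an inhibitor of metalloproteases, Mmp12 (-1.63), the macrophage elastase gene, Serpina3n (-1.53), Mmp3 (-1.37) and Mmp14 (-1.07). Timp1 was at 7.71, 6.65, 7.56, 7.21 and 6.61 in C57Bl/6, 9.78, 9.34, 10.25, 9.45 and 9.37 in Largemyd, 9.82, 9.5, 10.61, 9.16 and 9.56 in Dmdmdx, and 11.12, 10.84, 9.9, 10.04 and 10.58 in the double mutant. The double mutant had the highest mean and overlapped both single mutants. For Mmp12 the double mutant was 1.30 above Largemyd (adjusted p = 0.044), and for Serpina3n it was 1.15 above Dmdmdx (adjusted p = 0.032), so these 2 were below the sum and yet above 1 of the single mutants. The call ended without any of 11 arrays for Mmp12 and any of 13 for Serpina3n, left out singly, with adjusted p up to 0.10 and 0.12. When the high-Xist arrays were left out 1 of the 25 passed, and without C57Bl/6 replicate 4 there were 7.

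Growth factor genes that passed lay on both sides. Of 27 measured 6 were negative, beside 2.05% of all genes, and 2 positive, beside 2.97%, Mstn and Fgf2 (0.74). The call of Fgf2 ended in 10 of 20 fits that left out 1 array (adjusted p up to 0.083), and none of the 27 passed in limma without the high-Xist arrays, against 10 without the other-tissue arrays. The negative ones included Igf2 (-1.37 ± 0.29) and Igf1 (-0.67), which encode the growth factors of muscle repair, Hgf (-0.85), the activator of satellite cells, and Bmp1, Pdgfrb and Ltbp2. Igf2 was at 9.57, 9.46, 9.2, 9.73 and 9.41 in C57Bl/6, 10.79, 10.83, 10.96, 10.97 and 11.01 in Largemyd, 11.3, 11.11, 10.68, 11.53 and 11.57 in Dmdmdx, and 11.35, 11.91, 11.25, 10.82 and 11.18 in the double mutant. All mutants were above all controls, and the double mutant overlapped both single mutants. Igf2 and Peg3 (-1.28 ± 0.24) were also the 2 that passed of 16 genes of the imprinted growth list, whose median was -0.37. That is 12.5%, beside 5.02% of all genes. Neither passed without the high-Xist arrays, with Igf2 at -1.56 (adjusted p = 0.075) and Peg3 at -1.13 (adjusted p = 0.1).

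Genes of the regenerating sarcomere, which is built by newly fused fibres, divided as well. Of 18 measured 3 passed, which is 16.7% beside 5.02% of all genes, and the list median was 0.36. Myl4 (-1.17 ± 0.22), the embryonic light chain gene, and Ankrd1 (-1.47 ± 0.35), a stretch-induced gene, lay below the sum, and Mybph (1.30 ± 0.37) above it. Myl4 was at 11.22, 10.73, 10.76, 11.14 and 11.01 in C57Bl/6, 12.42, 12.21, 12.41, 12.18 and 12.46 in Largemyd, 12.68, 12.6, 12.1, 12.99 and 12.74 in Dmdmdx, and 12.86, 13.09, 12.79, 12.48 and 12.84 in the double mutant. The double mutant was above all Largemyd arrays but not by an amount that passed (0.47, adjusted p = 0.11). Without the high-Xist arrays, which leaves 1 control, Myl4 was at -1.40, Ankrd1 at -1.96 and Mybph at 0.26. The Mybph call ended without any of 8 arrays left out singly, with adjusted p up to 0.080. None of 21 satellite cell and myogenic factor genes passed (limma, 2 at an unadjusted p under 0.05), the largest being Mymk, the fusion protein gene, at -1.46 (adjusted p = 0.056).

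Genes of lipid use lay above the sum where they passed. Of 31 measured genes of fatty acid oxidation and lipid use 7 passed, all positive, where 2.97% of all genes were positive, and the list median was 0.38. They were Ppara (0.86), which encodes the receptor that activates the pathway, Slc25a20 (0.66) and Cpt2 (0.44) for carnitine transport, Acadvl (0.59) and Acadm (0.54), the very long and medium chain dehydrogenase genes, and Etfdh (0.56) and Etfb (0.35), which pass electrons to the respiratory chain. Acadvl was at 10.21, 10.09, 10.1, 10.36 and 10.28 in C57Bl/6, 9.75, 9.36, 9.54, 9.68 and 9.74 in Largemyd, 9.62, 9.81, 9.75, 9.7 and 9.58 in Dmdmdx, and 9.83, 9.53, 9.99, 9.5 and 9.59 in the double mutant. All mutant arrays were below all controls, by 0.59, 0.52 and 0.52 in that order, and the double mutant overlapped both single mutants.

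The lipid count moved with single arrays and with scaling. The call of Ppara ended in 13 of 20 fits that left out 1 array (adjusted p up to 0.1) and that of Slc25a20 in 8 (adjusted p up to 0.11). The count was 1 without Largemyd replicate 2, the array with lymph node markers, 9 without double mutant replicate 2, 2 after quantile normalisation, 12 without the other-tissue arrays, of which 1 was negative, and 0 without the high-Xist arrays, with a median of 0.31. The other energy lists had medians of the same sign and few calls. Of 24 glycolysis and glycogen genes 2 passed, which is 8.33% beside 5.02% of all genes, with a median of 0.28. They were Fbp2 (1.27 ± 0.32), the muscle fructose bisphosphatase gene, and Ldhb (0.98 ± 0.26), a lactate dehydrogenase gene. Neither passed without the high-Xist arrays, with Fbp2 at 0.63 (adjusted p = 0.66). None of 64 oxidative phosphorylation genes and none of 26 genes of the citric acid cycle and amino acid breakdown passed (limma, with 14 and 7 positive at an unadjusted p under 0.05), with medians of 0.23 and 0.27. The medians against C57Bl/6 were -0.38 in Largemyd, -0.12 in Dmdmdx and -0.24 in the double mutant for oxidative phosphorylation. Of 18 fast fibre genes 1 passed, Actn3 at 0.38, which is 5.56% beside 5.02% of all genes, and its call ended in 16 of 20 fits that left out 1 array (adjusted p up to 0.16) and without the high-Xist arrays. None of 15 slow fibre genes passed (limma, 3 at an unadjusted p under 0.05).

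**Figure D4:**
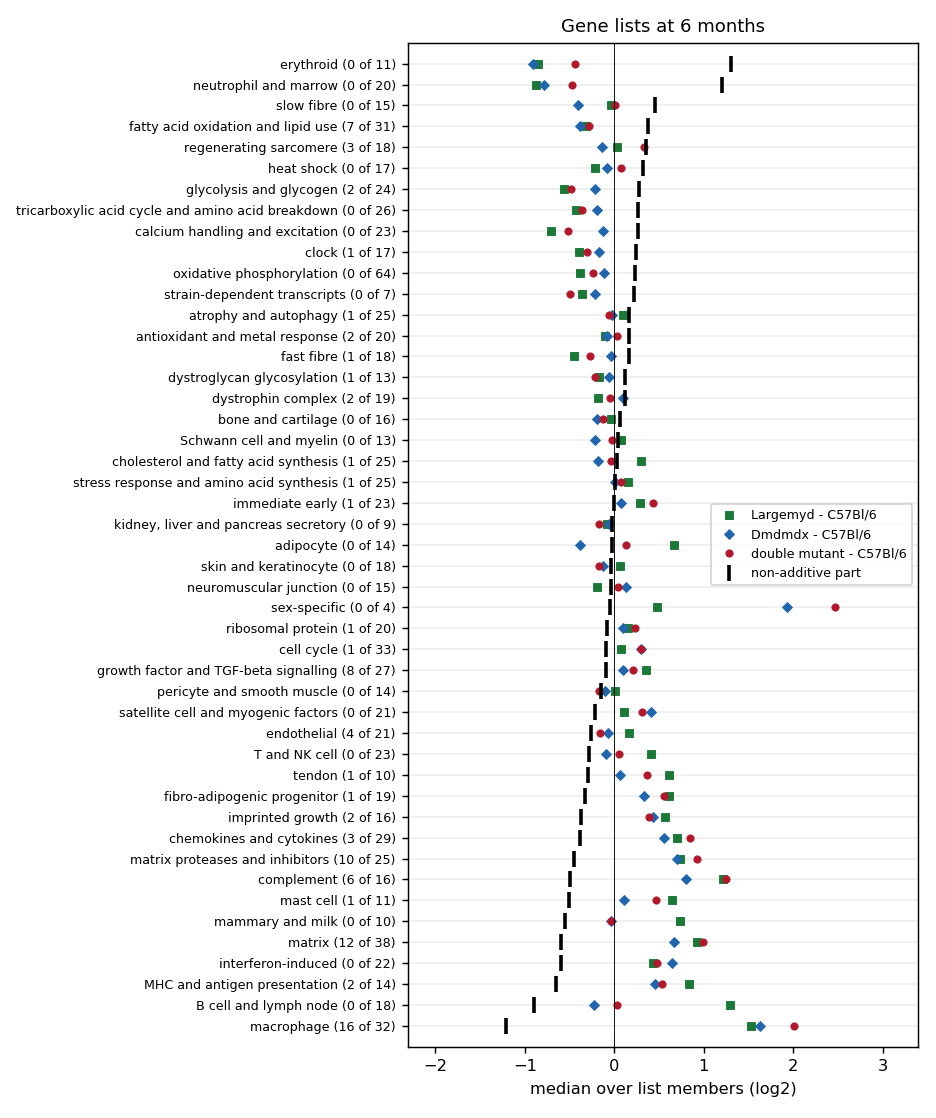
Median over the measured members of each gene list at 6 months (log2) of the differences of Largemyd, Dmdmdx and the double mutant from C57Bl/6 and of the non-additive difference (black bars). Numbers in brackets give the members that passed for the non-additive difference and the members measured, as 16 of 32 for macrophages at a median of -1.21.

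The complex that holds dystrophin came next. Dmd, which encodes dystrophin, fell by 0.93 ± 0.18 in Dmdmdx and by 1.09 ± 0.18 in the double mutant and was at -0.39 ± 0.18 in Largemyd (adjusted p = 0.083). Its non-additive difference was 0.23 ± 0.25, with a 95% interval from -0.27 to 0.73 (adjusted p = 0.76). Dag1, which encodes dystroglycan, had 0.14 ± 0.15, with an interval from -0.15 to 0.44 (adjusted p = 0.73). Of 19 measured genes of the dystrophin complex 2 passed, which is 10.5% beside 5.02% of all genes, both negative: Sntb2 (-0.46 ± 0.09, adjusted p = 0.0016), which encodes the syntrophin beta 2 scaffold, and Utrn, the dystrophin homologue that can stand in for it.

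Utrn was at 9.48, 9.42, 9.36, 9.47 and 9.36 in C57Bl/6, 9.91, 9.85, 9.93, 10.22 and 9.55 in Largemyd, 9.58, 9.47, 9.66, 9.54 and 9.71 in Dmdmdx, and 9.76, 9.65, 9.72, 9.73 and 9.66 in the double mutant. Every Largemyd and double mutant array was above every control, and Dmdmdx overlapped the control by 1 array. The non-additive difference was -0.36 ± 0.10 (adjusted p = 0.028), and it did not pass without C57Bl/6 replicate 5, Largemyd replicate 4, or Dmdmdx replicate 3 or 5 (adjusted p from 0.052 to 0.078). Nor did Utrn pass without the high-Xist arrays (adjusted p = 0.69), without the other-tissue arrays (adjusted p = 0.073), in a fit of the 20 arrays alone (adjusted p = 0.08) or with array medians subtracted. Sntb2 rose by 0.76 in Largemyd, 0.62 in Dmdmdx and 0.92 in the double mutant, which exceeded Dmdmdx by 0.30 (adjusted p = 0.0028). Of 13 measured genes of dystroglycan glycosylation 1 passed, or 7.69%, near the 5.02% of all genes. It was B3galnt2 (0.67 ± 0.17, adjusted p = 0.013), whose enzyme extends the mannose-linked chain of alpha-dystroglycan. It fell by 1.07 in Largemyd, 0.52 in Dmdmdx and 0.91 in the double mutant. With the high-Xist arrays left out, neither Sntb2 (-0.51, adjusted p = 0.14) nor B3galnt2 (0.34, adjusted p = 0.81) passed.

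Among 21 endothelial markers 4 passed, all negative, beside 2.05% of all genes, with a median of -0.26. Aplnr, the apelin receptor gene, was at 9.29, 9.51, 8.9, 9.12 and 9.12 in C57Bl/6, 10.08, 9.6, 10.32, 10.13 and 9.91 in Largemyd, 9.99, 9.94, 10.31, 9.69 and 10.11 in Dmdmdx, and 10.15, 9.94, 9.43, 8.33 and 8.59 in the double mutant. Both single mutants were above all controls, and the double mutant overlapped every group, with 2 arrays below the lowest control. Aplnr rose by 0.82 in each single mutant, and the double mutant minus C57Bl/6 was 0.10 (adjusted p = 0.78), which gave -1.54 ± 0.34 (adjusted p = 0.0038). The others were Pecam1 (-0.58), a junction protein gene, the receptor gene Tie1 (-0.46) and the transcription factor gene Erg (-0.42 ± 0.12). Erg was lower in the double mutant than in Largemyd by a difference of -0.35 (adjusted p = 0.019). The calls of Pecam1 and Tie1 ended without the other-tissue arrays, that of Tie1 also without any of 13 arrays left out singly (adjusted p up to 0.12), and 1 endothelial marker passed without Dmdmdx replicate 3. None of the 21 passed in limma without the high-Xist arrays, where Aplnr was at -1.9 (adjusted p = 0.16).

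Further single genes passed in other lists, where the share of all genes that passed was 5.02%. Below that share were cell cycle (1 of 33 measured), immediate early (1 of 23) and ribosomal protein genes (1 of 20). So were cholesterol and fatty acid synthesis, stress response and atrophy, with 1 of 25 each. Antioxidant (2 of 20), clock (1 of 17) and mast cell genes (1 of 11) were above that share, on these few genes. Mt2, a metallothionein gene of the stress response, was below the sum at -1.49 ± 0.34 (adjusted p = 0.0048), and the double mutant exceeded Dmdmdx by 0.97 (adjusted p = 0.0084). For Mt2 the sum lay at 14.8, above the highest gene mean on these arrays, 14.06, and the part of that upper limit was not tested. Nr4a1, which encodes an early-response nuclear receptor of muscle, was above the sum at 1.25 ± 0.29 (adjusted p = 0.0064), having fallen by 1.32 in Largemyd, 0.60 in Dmdmdx and 0.67 in the double mutant. Acacb (0.80), whose enzyme makes malonyl-CoA, Herpud1 (0.50), Nqo1 (0.76) and Nfil3 (1.06) were also above it, and Ccnd1 (-0.83), Rps9 (-0.53) and Cma1 (-0.69), a mast cell protease gene, below it. Leaving out single arrays ended the call of Nfil3 in 16 of 20 fits, of Cma1 in 14, of Nqo1 in 10, of Ccnd1 in 9 and of Rps9 in 8, with adjusted p up to 0.15. None of these 9 genes passed without the high-Xist arrays, where Mt2 was at -0.96 (adjusted p = 0.65) and Nr4a1 at 1.04 (adjusted p = 0.27).

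Mice of the other ages gave the same contrast in other animals, and 635 genes (3.18%) passed at 3 months and 3030 (15.2%) at 21 days. Their arrays also entered the shared estimate of spread and the choice of probe set, so the ages are not fully independent. All 12 of the most negative genes had negative non-additive differences that passed at 21 days, where 8.75% of genes did, from -4.16 for Mpeg1 to -2.18 for Ms4a6b. At 3 months 11 of the 12 passed, where 1.87% of genes were negative, and all 12 lay between -2.98 and -1.54. None of the 12 had a difference at 6 months that departed from that at 21 days or 3 months (limma; 4 and 0 at an unadjusted p under 0.05). The macrophage list median was -2.3 at 21 days, -1.31 at 3 months and -1.21 at 6 months. Lymph node markers stood out at 21 days in Dmdmdx replicates 1, 3 and 5 and C57Bl/6 replicate 2 only. Double mutant replicate 5 then had marrow markers and replicate 3 skin markers. The 3-month arrays with marrow markers were C57Bl/6 replicate 3 and Dmdmdx replicates 3 and 5. That Dmdmdx replicate 5 also had lymph node markers, with a list mean of 10. Xist was high in 3-month C57Bl/6 replicate 5 and Dmdmdx replicates 4 and 5. None of these kinds cancels in the contrast of its age, and their part in the values at those ages was not tested.

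The positive genes varied more with age. At 3 months 5 of the 12 passed, Ostn (1.29), Lrrc52 (1.36), Otub2 (0.80), Alpk2 (1.06) and Asb4 (0.85), all positive, where 1.32% of genes were. At 21 days Alpk2 (1.15), Ppp1r3c (1.70), Ppp1r27 (0.96) and Abra (1.61) passed above the sum, where 6.44% of genes did, and Pla2g7 (-0.96) passed below it. Pla2g7 thus changed sign, and its value at 6 months minus that at 21 days was 2.53 ± 0.35 (adjusted p = 3.1e-05). Ostn (2.46 ± 0.53, adjusted p = 0.023), Otub2 (1.81 ± 0.31, adjusted p = 0.0025) and Asb4 (1.43 ± 0.26, adjusted p = 0.0029) were also more positive at 6 months than at 21 days. None of the 12 differed between 6 and 3 months (limma; 6 at an unadjusted p under 0.05).

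Over all genes the non-additive difference at 6 months departed from that at 21 days in 73 genes (0.366%), 51 more positive and 22 more negative, and from that at 3 months in 4 (0.0201%), 1 more positive (0.00502%) and 3 more negative (0.015%). Nxpe5 (1.71), which was at -2.38 at 21 days and -0.67 at 6 months, and Rnf128 (1.46), a ubiquitin ligase gene, were among the most positive against 21 days. Ctxn3 (-2.79), the chloride channel gene Ano1 (-1.22), Lims2 (-1.13), Kitl (-0.90), which encodes stem cell factor, and Samd5 (-0.90) were among the negative ones, as was the small nucleolar RNA Snord53 (-2.73, adjusted p = 0.022). The 4 against 3 months were Snord53 (-3.40), Erg (-0.92), Vmn1r17 (-0.64) and Zdhhc14 (0.68), of which Snord53 and Vmn1r17 were named after their values were seen. Erg was above the sum at 3 months (0.49) and below it at 6 months (-0.42). The 73 became 10 without the high-Xist arrays, 13 without the other-tissue arrays, and 45, 48, 37, 48 and 45 without C57Bl/6 replicate 2 or 4, Largemyd replicate 2 or 4, or double mutant replicate 1.

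**Figure D5:**
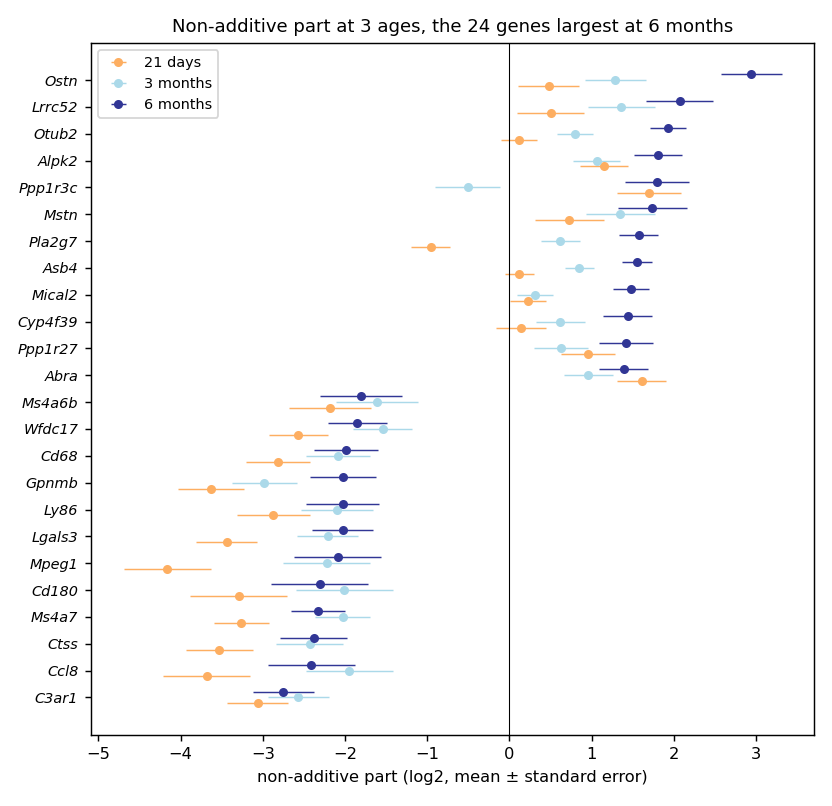
Non-additive difference (log2, mean ± standard error) of the 24 genes with the largest values at 6 months, at 21 days, 3 months and 6 months. The 12 negative genes lie below 0 at all ages, and Pla2g7 runs from -0.96 at 21 days to 1.57 at 6 months.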

How the data were processed

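Total RNA from powdered calf muscle was labelled and hybridised to 1 array per mouse per the labels. Per the submitters' processing notes the authors made the log2 values they deposited with RMA in Affymetrix Expression Console (version not given in the sources used here). Array means differ between ages, so levels were compared within an age only. Of 35556 probe sets 21789 had 1 gene symbol, 1621 several and 12146 none. The probe set with the highest mean over 60 arrays was kept for the 999 genes with more than 1, which left 19938 genes.

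limma 3.58.1 in R 4.3.3 fitted 12 group means to all 60 arrays (lmFit, eBayes, 48 residual degrees of freedom), with Benjamini-Hochberg adjustment over the genes of a contrast and a threshold of 0.05. The test was checked on simulated data with independent noise and no tissue or Xist effects, which the real arrays do have. It recovered 43.6% of added differences of 0.5 log2 units and 91.2% of those of 1. On average 6.1% of the simulated calls were false. Named genes were the 12 largest in each direction, leaving out predicted genes, the 4 largest of each list that passed (the 2 largest where fewer than 2 passed), the 5 largest in each direction for each age difference, and Dmd, Utrn and Dag1. Further list members, and Asb4 among the age differences, were named after their values were seen. The members and the 47 gene lists were chosen with earlier results of these data known. Promoters and figures used Python 3.11.15, pandas 2.3.3 and matplotlib 3.10.9. Precision is limited by 5 arrays per group. One gene is not reported here.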

Additional observations from a re-analysis of the deposited data

Results flagged for a closer look

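Among the 24 genes with the largest non-additive differences and Dmd, Utrn and Dag1, 12 of 108 groups of 5 arrays held a value apart from the other 4 by Dixon's test, where chance gives about 1 in 20 groups. C57Bl/6 replicate 3, the control with marrow markers and the only control with low Xist, held 7 of them: Ostn (9.95) and Abra (11.09) were its low values, and Ctss (8.68), Cd180 (8.86), Ly86 (9.74), Gpnmb (8.74) and Ms4a6b (7.96) its high ones. The others were Otub2 in double mutant replicate 4 (8.22), Cyp4f39 in Dmdmdx replicate 4 (8.6), Abra in Dmdmdx replicate 5 (11.04), Cd180 in Largemyd replicate 2 (10.45) and Cd68 in Largemyd replicate 4 (9.63). The part of marrow cells, lymph node cells and sex in these values was not tested.

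The non-additive difference at 6 months minus that at 21 days passed the test for Pla2g7 (2.53), Ostn (2.46), Otub2 (1.81), Nxpe5 (1.71), Rnf128 (1.46), Ctxn3 (-2.79), Ano1 (-1.22), Lims2 (-1.13), Kitl (-0.90) and Samd5 (-0.90). That at 6 months minus that at 3 months passed for Snord53 (-3.40), Erg (-0.92), Vmn1r17 (-0.64) and Zdhhc14 (0.68).

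Xist stood at or above 10.58 in 8 of the 20 arrays labelled male.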

How the results depend on the processing

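The 24 genes with the largest non-additive differences kept their direction under all 32 alternatives run, counting each array left out, except that 3 of them fell below the filter on genes at or above the median level. Without high-Xist arrays 4 of the 24 passed and on the linear scale 14. The 1001 calls became 3870 with array weights, 1926 on the linear scale, 58 without high-Xist arrays, 1691 without other-tissue arrays and 1540 with Xist and tissue markers as covariates. They ranged from 627 to 1460 with 1 array left out, and were 662, 644 and 627 without C57Bl/6 replicate 2, Largemyd replicate 2 or double mutant replicate 3. The 73 calls against 21 days became 35 with array medians subtracted, 720 with array weights, 114 among genes at or above the median level, 125 on the linear scale, 10 and 13 without high-Xist or other-tissue arrays, and 236 with the covariates, with 37 to 100 when 1 array was left out. The 4 against 3 months became 2 after quantile normalisation, 267 with array weights, 24 on the linear scale, and 8 and 9 without high-Xist or other-tissue arrays, with 3 to 5 when 1 array was left out. Mmp12 turned to 45.8 signal units on the linear scale (adjusted p = 0.96). The causes of these changes were not tested. The class of high-Xist arrays as the only covariate, chosen after seeing the data, cannot shift the non-additive values at 6 months, since its counts cancel there, and gave 1062 calls. No paired analysis was possible because the 6-month titles share only 1 animal number, between C57Bl/6 and the double mutant. With 5 arrays per group and 1 low-Xist control, the contrast within low-Xist arrays rests on 1 control array.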

Other observations

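H2-Ea, a class II gene whose expression depends on the strain's haplotype, was at 11.59, 12.36, 11.79, 11.36 and 6.07 in the 5 Largemyd arrays at 6 months and at 11.14, 5.99, 5.75, 5.73 and 5.86 in the double mutant. All C57Bl/6 and Dmdmdx arrays lay between 5.81 and 6.15, so 4 Largemyd mice and 1 double mutant stood apart. Pttg1, which encodes securin, was at 9.86 ± 0.15 in C57Bl/6 and 9.32 ± 0.16 in Largemyd, and at 7.81 ± 0.13 in Dmdmdx and 7.81 ± 0.26 in the double mutant (SD, n = 5). Its non-additive difference was 0.54 (limma, adjusted p = 0.086). Nnt, the mitochondrial transhydrogenase gene, fell by 0.78 in Largemyd, 0.65 in Dmdmdx and 0.68 in the double mutant, with a non-additive difference of 0.75 (limma, adjusted p = 0.055).

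Csn3, a milk casein gene, was at 4.97, 7.56, 5.52, 8.58 and 5.03 in the 5 Largemyd arrays, and all other arrays at 6 months lay between 4.72 and 5.18. Klk1b22, a kallikrein gene, was at 7.7, 8.27, 5.19, 5.25 and 8.23 in Largemyd and between 4.9 and 5.44 elsewhere, so the high arrays were not the same for both genes. Their non-additive differences were -1.36 (adjusted p = 0.096) and -1.82 (adjusted p = 0.089) in limma.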
